A study of Rattus norvegicus with 12 samples.

Results

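Stratified squamous epithelium is the layered, keratin-rich lining of skin, oesophagus and, in rodents, the non-glandular forestomach. The miRNAs known for this epithelium were followed here through 12 small RNA libraries of rat gastric mucosa. The members were all mature arms of miR-205, miR-203a, miR-203b, miR-31a and miR-224, which gave 8 of the 649 miRNAs in the 2 deposited count tables. The XLHZ group (4 libraries) came from rats that received the alkylating mutagen MNNG (N-methyl-N'-nitro-N-nitrosoguanidine) for 24 weeks and the herbal Xianglianhuazhuo formula for 60 days. The model group (4 libraries) received MNNG for 24 weeks without the formula. For both groups the labels describe chronic atrophic gastritis induced by MNNG at 180 µg/ml in the drinking water and 2% sodium salicylate by gavage. Cycles of 2 days of food and 1 day of fasting were part of this induction. Below, exposed or MNNG-exposed stands for all of these treatments together, whose effects cannot be told apart. The normal group (4 libraries) is labelled as untreated. The labels give no strain, sex or age, do not say whether the sampled wall included forestomach, and do not tie each library to its own animal. The p-values therefore measure only the spread between libraries, which may be technical.

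A miRNA guides the silencing complex to messenger RNAs chiefly through its seed, bases 2 to 8 from the 5′ end. miR-205 is abundant in stratified epithelia, where it represses the transcription factors Zeb1 and Zeb2 as the miR-200 family also does. miR-203 represses p63, the master regulator of squamous stem cells, as cells of mouse epidermis leave the basal layer. miR-31 acts in keratinocyte growth in mouse and human skin and is also known from inflamed gut epithelium, so it is less particular to squamous tissue. miR-224 lies within Gabre, the gene of a GABA-A receptor subunit, and its role in squamous epithelium is less settled.

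The mature sequences are shown because the arms of this set differ in seed and, at the miR-203 locus, pair with each other across strands. They are given 5′ to 3′ from RefSeq (GRCr8), with the seed in capitals, and all 8 members matched a RefSeq entry. The files list them with the rat prefix, as rno-miR-205, rno-miR-203a-3p, rno-miR-203b-3p and rno-miR-31a-5p for the 4 central members, and the prefix is left out elsewhere.
miR-205: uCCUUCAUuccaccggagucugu
miR-203a-3p: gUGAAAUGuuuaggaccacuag
miR-203b-3p: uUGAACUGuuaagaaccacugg
miR-203a-5p: aGUGGUUCuuaacaguucaac
miR-31a-5p: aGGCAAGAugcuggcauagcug
miR-31a-3p: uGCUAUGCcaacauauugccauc
miR-224-5p: cAAGUCACuagugguuccguuu

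The 8 members carry 8 distinct seeds, and 0 other mature rat miRNAs among the 724 RefSeq entries share any of them. The seeds of miR-203a-3p and miR-203b-3p differ at 1 position, A6C, counted from 1 at the 5′ end with the base of miR-203a-3p first. miR-205 lies on the minus strand at chr13:107564588-107564610. miR-31a-5p lies on the minus strand at chr5:108714906-108714927, inside a long non-coding RNA gene, and miR-224-5p on the minus strand at chrX:155107183-155107204. miR-203a-3p lies on the plus strand at chr6:137020756-137020777. miR-203b-3p lies on the minus strand of the same locus, at chr6:137020716-137020737, where 20 of its bases are the exact complement of miR-203a-5p. The coordinates are those of RefSeq, since no source used here names the build behind the counts.

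The libraries held 9095260 to 11556061 miRNA counts each. Levels are CPM, counts over the library total in that usual unit, scaled by trimmed mean of M-values (TMM) factors over the 12 libraries, and the mature arms are of nearly the same length, 21 to 23 bases. Model libraries 2 and 3 stood farthest from the others, with a mean Spearman correlation of 0.956 and 0.949 with the other 11 libraries, against 0.967 to 0.979 for the other libraries. Model library 3 also had the lowest miR-375-3p, a miRNA of glandular and endocrine epithelium, at 5229 CPM, against 11252 to 13077 CPM in the other model libraries. For the members, model library 3 and normal library 1 were the libraries that lay apart, and values without them are given beside the results they move.

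miR-205 had 35939, 35951, 31552 and 49453 counts in XLHZ libraries 1 to 4, 31598, 33963, 16058 and 37249 in model libraries, and 65626, 42403, 40746 and 42347 in normal libraries. It was abundant in every library, with normal library 1 highest and model library 3 lowest, and the 3 groups overlapped. Its level was 3521 ± 515 CPM in XLHZ mucosa, 2934 ± 853 CPM in model mucosa and 4374 ± 1455 CPM in normal mucosa (mean ± SD, n = 4 each here and throughout). By these means the order was normal, XLHZ, model, and no neighbouring groups differed past the threshold in edgeR. miR-205 ranked between the 34th and the 66th most abundant of 648 miRNAs in single libraries. In normal mucosa it stood next to let-7e-5p (4415 ± 194 CPM) above and miR-31a-5p below, closer to both than its own SD.

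miR-31a-5p, the dominant arm of its hairpin, had 39379, 30631, 38187 and 46661 counts in XLHZ libraries, 33312, 23425, 53646 and 34906 in model libraries, and 31678, 48184, 55768 and 54821 in normal libraries. In counts normal libraries 3 and 4 were highest. Scaled to CPM, model library 3 was the highest of all at 5739 CPM, and normal library 1 was the lowest of its group at 3163 CPM, whereas for miR-205 these libraries were the lowest and the highest of all. The level was 3571 ± 435 CPM in XLHZ, 3645 ± 1431 CPM in model and 4250.5 ± 777 CPM in normal mucosa. The order by mean was normal, model, XLHZ, and no neighbouring groups differed past the threshold in edgeR. The minor arm miR-31a-3p stood at 126 ± 15.8, 141 ± 70.1 and 111 ± 19.4 CPM in XLHZ, model and normal mucosa, with model library 3 again highest at 242 CPM. The antisense miR-31b lies over 19 bases of miR-31a-5p on the other strand and was not among the 648 miRNAs of the joined counts. No source states whether counting used the strand. At the miR-203 locus the complementary arms miR-203b-3p and miR-203a-5p were counted apart, with 29 to 187 against 0 to 4 counts in a library. Whether miR-31b reads entered the miR-31a-5p counts was not tested.

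miR-203a-3p had 9145, 9442, 11673 and 19783 counts in XLHZ libraries, 8815, 8991, 17921 and 9275 in model libraries, and 31728, 14704, 15056 and 13091 in normal libraries. In each group 1 library lay well above the other 3, which were XLHZ library 4, model library 3 and normal library 1. The level was 1140.4 ± 368, 1141 ± 524 and 1728 ± 966 CPM in XLHZ, model and normal mucosa. On the other strand miR-203b-5p, not among the 648 miRNAs of the joined counts, is the complement of miR-203a-3p over 20 bases. Whether its reads entered the miR-203a-3p counts was not tested. miR-203b-3p, from the opposite strand, was far rarer, with 41, 60, 67 and 82 counts in XLHZ libraries, 71, 39, 29 and 88 in model libraries, and 187, 84, 83 and 110 in normal libraries. Its level was 5.74 ± 1.27, 5.48 ± 2.13 and 10.7 ± 5.39 CPM in the same order of groups. All 4 XLHZ libraries lay below all 4 normal libraries for miR-203b-3p, as did 2.24% of all miRNAs tested in that comparison, while the model libraries overlapped the normal ones. miR-203a-5p, its complement, was listed apart from it with 0 to 4 counts in a library.

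miR-224-5p had 699, 815, 772 and 987 counts in XLHZ libraries, 712, 838, 644 and 755 in model libraries, and 1014, 1133, 750 and 1187 in normal libraries. It was the steadiest member, at 75.5 ± 7.17, 73.9 ± 12.2 and 92.0 ± 16.9 CPM in XLHZ, model and normal mucosa. In the normal group library 3 was low at 66.7 CPM and the other 3 lay between 99.7 and 101 CPM. miR-224-3p had a single count, in XLHZ library 2. These 2 rare arms, miR-203a-5p and miR-224-3p, did not pass the filter on low counts, and the other 6 members were tested in each comparison.

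**Figure D1:**
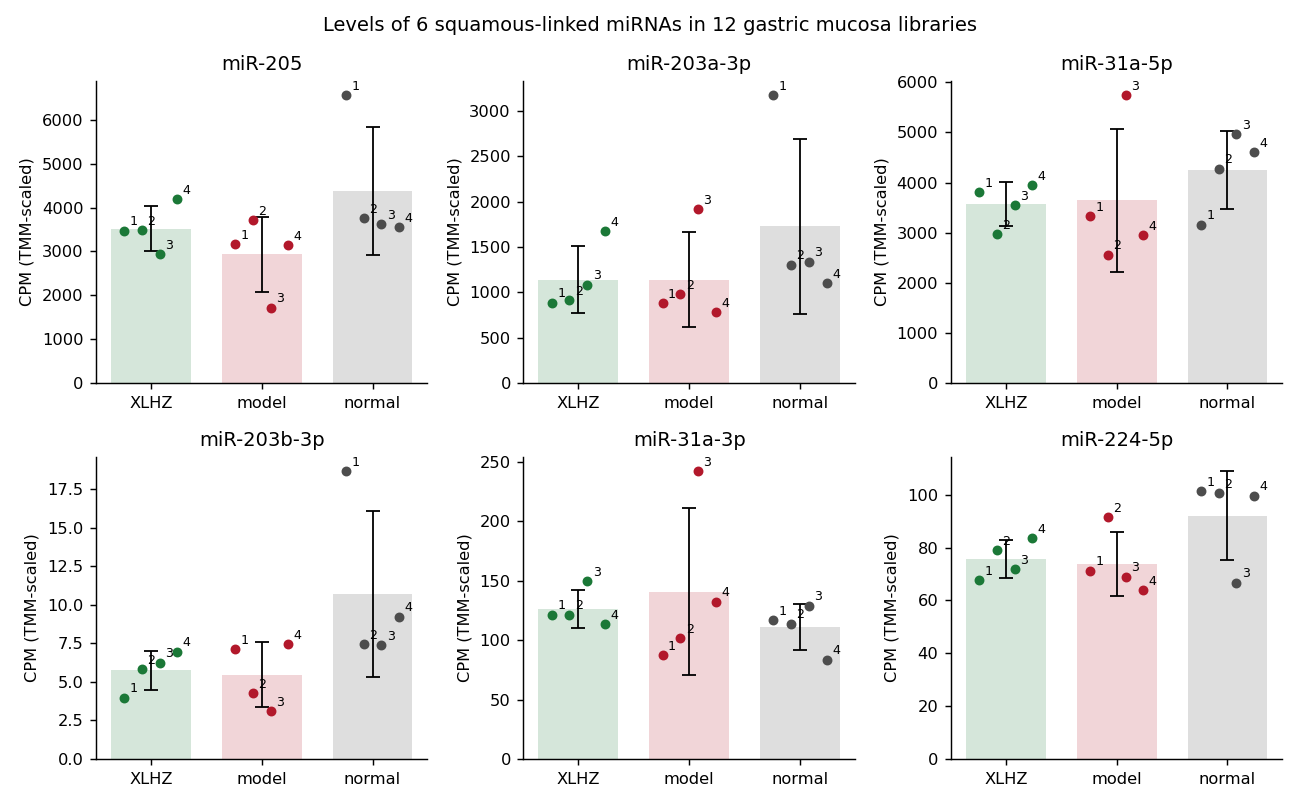
Level (CPM, TMM-scaled) of 6 squamous-linked miRNAs in each library, with the replicate number beside each point, the group mean as a bar and the SD as an error bar (n = 4 per group). Normal library 1 is highest for miR-205, miR-203a-3p and miR-203b-3p, and model library 3 is lowest for miR-205 but highest for both arms of miR-31a.

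**Figure D2:**
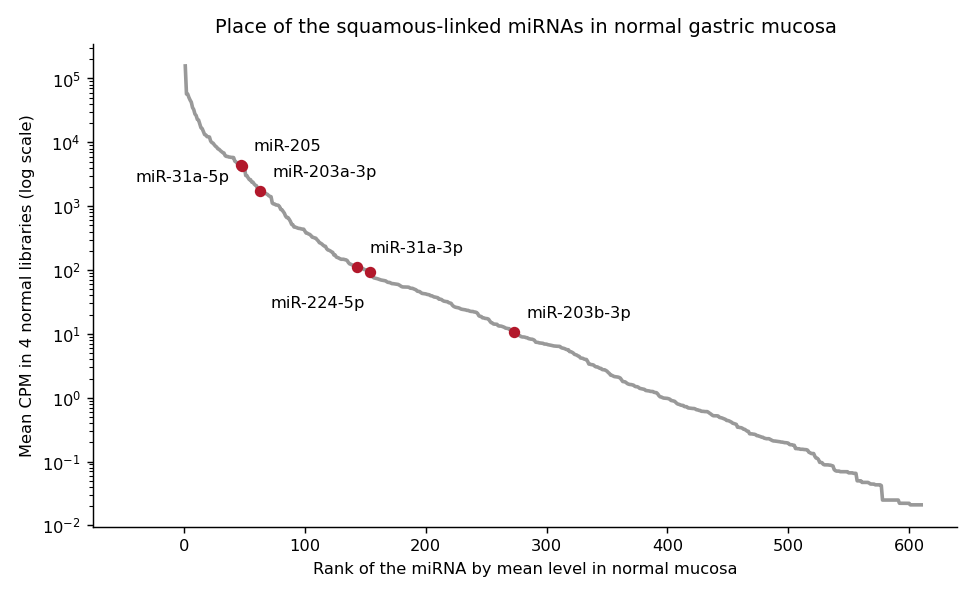
Mean level in the 4 normal libraries (CPM, log scale) against rank by that mean for every miRNA with a count there (grey line), with 6 members as red points. miR-205 and miR-31a-5p share nearly the same place at ranks 47 and 48, miR-203a-3p is at rank 63, and miR-203b-3p is at rank 273.

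The spread over the 12 libraries differed among the members. The coefficient of variation was 54.6% for miR-203b-3p, 50.2% for miR-203a-3p, 32.5% for miR-31a-3p, 30.7% for miR-205, 24.5% for miR-31a-5p and 17.8% for miR-224-5p. Among the 282 miRNAs with a mean of at least 10 CPM the median was 21.7%, with quartiles of 15.5% and 32.8%, so miR-203a-3p lay above the upper quartile and miR-224-5p between the lower quartile and the median. The mean of miR-203b-3p over all libraries was below 10 CPM, where counting error weighs more.

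The first comparison set MNNG-exposed mucosa without the formula against normal mucosa. None of the 6 members passed, and 5 had log2 fold changes below 0. With all miRNAs, 1 of 403 passed (0.248%, edgeR quasi-likelihood test, Benjamini-Hochberg adjusted p under 0.05), and 50.9% had log2 fold changes below 0. The median log2 fold change was -0.45 for the 6 members and -0.0072 for all miRNAs. miR-205 had a log2 fold change of -0.58 (SE 0.28, 95% interval -1.21 to 0.049, edgeR adjusted p = 0.642). miR-203a-3p had -0.61 (SE 0.39, interval -1.49 to 0.28, edgeR adjusted p = 0.648). miR-203b-3p had the largest difference, -0.96 (SE 0.40, interval -1.85 to -0.075), with an unadjusted p of 0.0364 and an adjusted p of 0.605 in edgeR, and was the 1 member of 6 with an unadjusted p under 0.05, against 7.2% of all miRNAs. The model and normal libraries overlapped for all 6 members, and 1.99% of all miRNAs lay wholly lower in the model libraries. miR-31a-5p had -0.23 (interval -0.80 to 0.35), miR-31a-3p 0.34 (-0.38 to 1.05) and miR-224-5p -0.32 (-0.78 to 0.14). No decrease was established for any member. In bulk mucosal RNA, the share of squamous tissue, the share of other tissue sampled and the miRNA level per cell cannot be told apart.

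The values depended on model library 3 and normal library 1. Without both, a setting chosen after seeing the data, miR-205 had a log2 fold change of -0.12 and miR-203b-3p one of -0.35. miR-203a-3p had -0.50, with an unadjusted p of 0.0175 and an adjusted p of 0.505 in edgeR. miR-31a-5p moved the other way, to -0.64, with an unadjusted p of 0.0033 and an adjusted p of 0.333 in edgeR, and miR-31a-3p moved to -0.020. Leaving out 1 library at a time, the log2 fold change of miR-205 ranged from -0.71 to -0.31, that of miR-203a-3p from -0.91 to -0.13 and that of miR-203b-3p from -1.14 to -0.54. The value nearest 0 came without normal library 1 for all 3. Without model library 3 alone, miR-205 had -0.33 and miR-203a-3p -0.91.

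The second comparison set formula-treated against untreated MNNG-exposed mucosa. None of the 6 members passed, 3 lay above 0 and 3 below, and their median log2 fold change was near 0, as was that of all 402 miRNAs tested at 0.0057. Of all miRNAs 1 passed (0.249%), 49% lay below 0, and 4.23% had an unadjusted p under 0.05, as did 0 of the 6 members. The groups overlapped for all 6, and 0.249% of all miRNAs lay wholly lower in the XLHZ libraries. miR-205 had a log2 fold change of 0.24 (SE 0.23, interval -0.28 to 0.77, edgeR adjusted p = 0.819), and 0.019 without model library 3. miR-203a-3p had -0.014 (interval -0.74 to 0.71) and miR-31a-5p -0.047 (interval -0.59 to 0.50), intervals that hold changes in either direction. miR-203b-3p had 0.046, miR-31a-3p -0.17 and miR-224-5p 0.014. Without model library 3 the sign turned for all 5 of these members, to 0.32 for miR-203a-3p, 0.22 for miR-31a-5p, -0.18 for miR-203b-3p, 0.18 for miR-31a-3p and -0.056 for miR-224-5p. On library totals alone, a scaling that moved the median of all miRNAs to 0.17, the signs of miR-203a-3p (0.21), miR-31a-3p (0.027) and miR-31a-5p (0.16) turned.

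The third comparison set formula-treated, MNNG-exposed mucosa against normal mucosa. None of the 6 members passed, and 5 lay below 0 with a median of -0.33, while 6 of 401 miRNAs passed (1.5%) 50.9% lay below 0 and the median of all was -0.0040. miR-203b-3p had a log2 fold change of -0.92 (SE 0.34, interval -1.68 to -0.16), with an unadjusted p of 0.0227 and an adjusted p of 0.470 in edgeR, against 8.73% of all miRNAs with an unadjusted p under 0.05. Without normal library 1 it was -0.51, that of miR-205 was -0.071 and that of miR-203a-3p was -0.15. miR-205 had -0.34 (interval -0.82 to 0.14), miR-203a-3p -0.62 (-1.43 to 0.18), miR-31a-5p -0.28 (-0.62 to 0.058), miR-224-5p -0.31 (-0.69 to 0.064) and miR-31a-3p 0.16 (-0.20 to 0.51). This comparison shares its normal libraries with the first, and normal library 1 enters both.

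With both exposed groups set against the normal group in 1 fit of 12 libraries, the members again did not pass, against 2 of 417 miRNAs (0.48%). Of the members 5 of 6 lay below 0, against 46.3% of all miRNAs, and the groups overlapped for all 6, while 0.48% of all miRNAs lay wholly lower in the exposed libraries. miR-205 had a log2 fold change of -0.44 (SE 0.22, edgeR adjusted p = 0.713) and miR-203b-3p one of -0.92 (SE 0.31, unadjusted p of 0.0101, adjusted p = 0.464, edgeR), where 6.24% of all miRNAs had an unadjusted p under 0.05. Without model library 3 and normal library 1 these were -0.055 and -0.39. miR-31a-5p had -0.24 with all libraries and -0.48 without those 2, with an unadjusted p of 0.0029 and an adjusted p of 0.248 in edgeR.

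**Figure D3:**
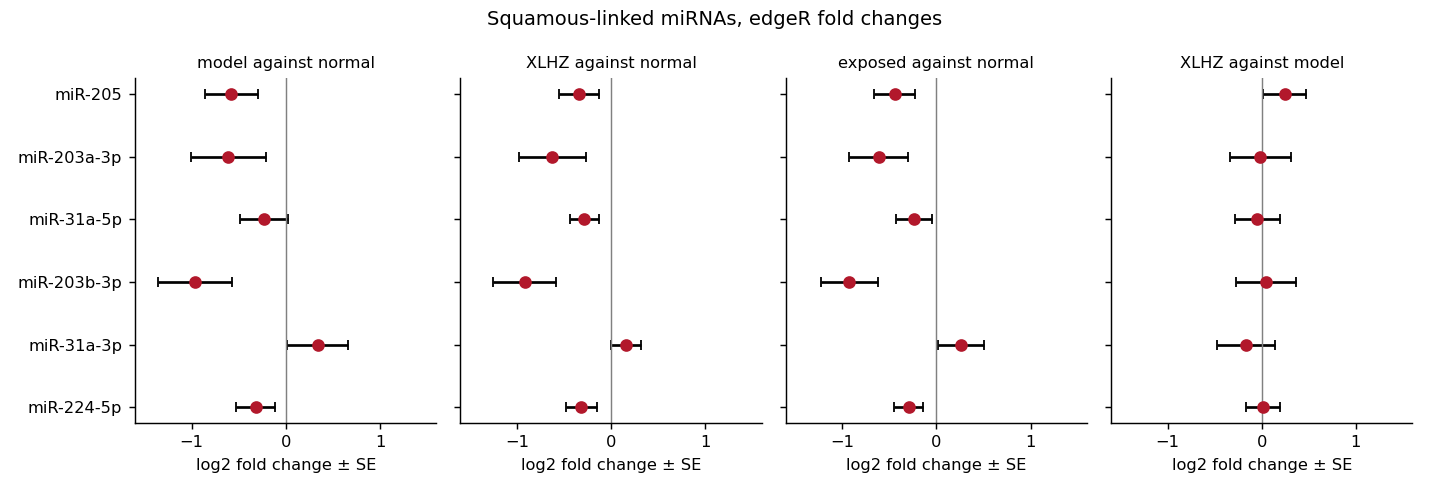
log2 fold change (points) with SE (bars) of 6 members in 4 edgeR comparisons, each named with the group on top first. Against normal mucosa 5 of 6 points lie below 0 and none passed the adjusted threshold of 0.05, and between XLHZ and model mucosa the points lie between -0.17 and 0.24.

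Ratios within a library do not depend on the scaling between libraries. miR-205 was set against the summed guide arms of the miR-200 family, which are shared by glandular and squamous epithelium. That ratio was 0.0411, 0.0479, 0.0347 and 0.0538 in XLHZ libraries, 0.0411, 0.0689, 0.0202 and 0.0370 in model libraries, and 0.0966, 0.0470, 0.0459 and 0.0451 in normal libraries. Normal library 1 was the highest of all 12 and model library 3 the lowest, and the groups overlapped. The model minus normal difference of mean log2 ratios was -0.54 (two-sided exact permutation p = 0.314, adjusted p = 0.88 over 28 tests of 7 ratios). It was -0.23 without model library 3 and -0.27 without normal library 1, and -0.82 without model library 2. The same difference was 0.16 for miR-205 over miR-375-3p (exact permutation p = 0.629, adjusted p = 0.96), and 0.43 without normal library 1. For miR-205 over the smooth muscle miR-143-3p it was -1.13 (exact permutation p = 0.0571, adjusted p = 0.8), and -0.74 without model library 3. The smallest p that 4 against 4 libraries allow is 0.0286.

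The members did not keep fixed proportions. miR-203a-3p over miR-205 was 0.254, 0.263, 0.370 and 0.400 in XLHZ libraries, 0.279, 0.265, 1.12 and 0.249 in model libraries, and 0.483, 0.347, 0.370 and 0.309 in normal libraries. Model library 3 was the single library with more miR-203a-3p than miR-205. miR-31a-5p over miR-205 was 1.10, 0.852, 1.21 and 0.944 in XLHZ libraries, 1.05, 0.690, 3.34 and 0.937 in model libraries, and 0.483, 1.14, 1.37 and 1.29 in normal libraries. Model library 3 was the highest of all 12 and normal library 1 the lowest. The model minus normal difference of log2 ratios was 0.025 for miR-203a-3p over miR-205, and -0.50 without model library 3. For miR-31a-5p over miR-205 it was 0.31, and -0.17 without model library 3 or -0.040 without normal library 1. None of the 28 tests passed, with adjusted p of 0.8 to 1. The lowest unadjusted value was for miR-31a-5p over miR-31a-3p in exposed against normal mucosa. That arm ratio was 28.6 ± 5.41 in XLHZ, 27.3 ± 7.27 in model and 39.6 ± 11.6 in normal mucosa (log2 difference of exposed minus normal -0.48, two-sided exact permutation p = 0.0485, adjusted p = 0.8). Without normal library 4 this difference was -0.31, and without normal library 1 it was -0.65.

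**Figure D4:**
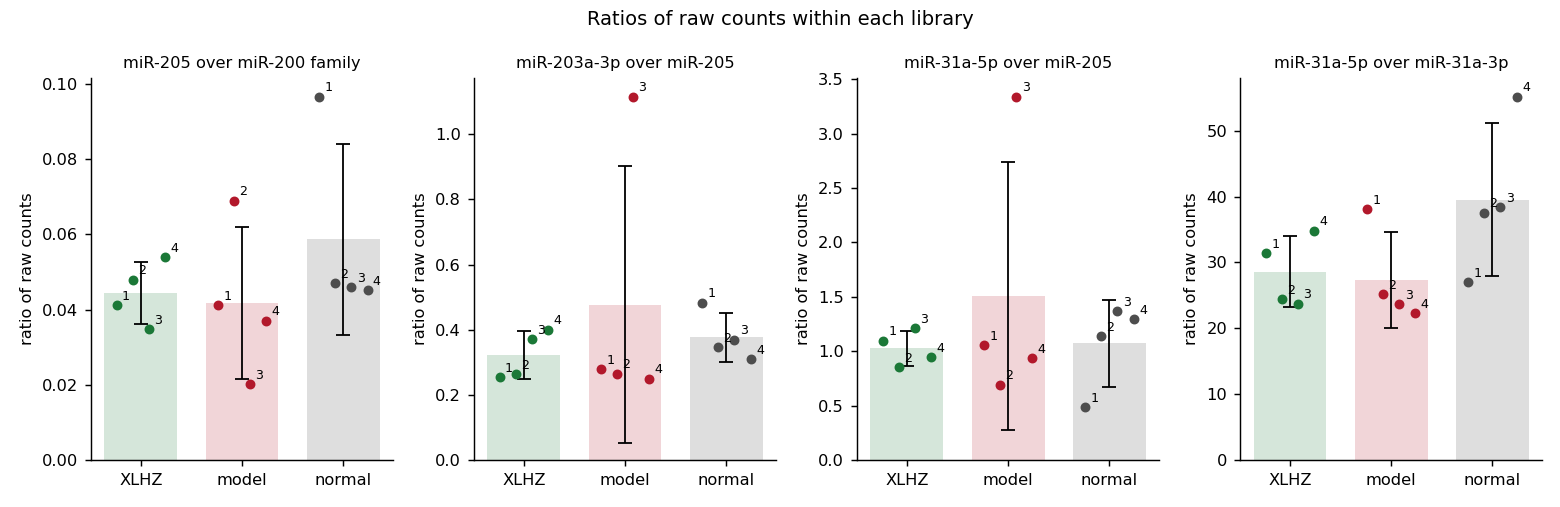
Ratios of raw counts in each library, with replicate numbers beside the points, the mean as a bar and the SD as an error bar (n = 4 per group). Model library 3 stands at 1.12 for miR-203a-3p over miR-205 and 3.34 for miR-31a-5p over miR-205, and normal library 1 at 0.0966 for miR-205 over the miR-200 family.

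Correlations across the 12 libraries were computed for 18 pairs on log2(CPM + 0.5), and none passed after adjustment over the pairs. miR-205 and miR-203b-3p had Pearson r = 0.79 (permutation p = 0.0104, adjusted 0.151) and Spearman rho = 0.50 (permutation p = 0.104, adjusted 0.303). Without model library 3 and normal library 1, the 2 libraries farthest from the median of miR-205, r was -0.020, so that relation rests on those libraries. miR-205 and miR-203a-3p had r = 0.32 (permutation p = 0.275, adjusted 0.369) and rho = 0.46 (permutation p = 0.134, adjusted 0.303), and r = 0.69 without the same 2 libraries. miR-205 and miR-31a-5p had r = -0.45 (permutation p = 0.143, adjusted 0.294) and rho = -0.077 (permutation p = 0.816, adjusted 0.938), and r = 0.29 without them. With group means subtracted this r was -0.84 (permutation p = 0.00104, adjusted 0.0187), and without the 2 libraries it was -0.055. miR-205 and miR-224-5p had r = 0.59 (permutation p = 0.0252, adjusted 0.151) and rho = 0.69 (permutation p = 0.0167, adjusted 0.284), and r = 0.55 without the 2 libraries. The labels give no batch, so within-batch values could not be computed.

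**Figure D5:**
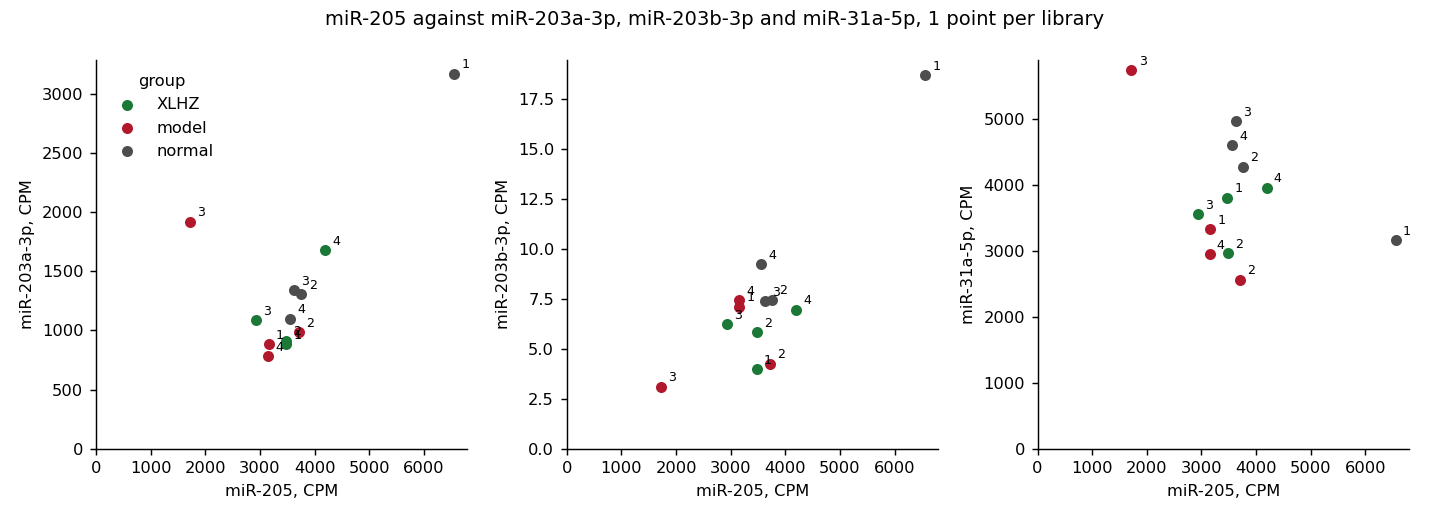
Level of miR-205 (CPM, horizontal axis) against miR-203a-3p, miR-203b-3p and miR-31a-5p (CPM, vertical axes), 1 point per library, coloured by group and numbered by replicate. Normal library 1 at 6553 CPM and model library 3 at 1718 CPM of miR-205 lie at the ends of each plot, and the other 10 libraries lie between 2936 and 4191 CPM.

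Among 277 other miRNAs with a mean of at least 10 CPM, those most like miR-205 by Spearman rho over the 12 libraries were miR-365-3p (0.86), miR-193a-5p (0.74), let-7a-5p (0.66), miR-222-3p and miR-676 (0.62 each) and miR-375-3p (0.62). The most opposite were miR-503-3p (-0.80), miR-429 (-0.76), miR-200b-3p (-0.73) and miR-449a-5p (-0.70). For miR-31a-5p the most like were miR-200b-5p (0.93), miR-425-5p and miR-674-5p (0.90 each). All points share 1 library each for both miRNAs and 1 common scaling, and these values are descriptions.

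The squamous label was set against other miRNAs, since the tables hold no messenger RNA and so no keratin. Of 3 further arms linked to squamous epithelium, miR-135b-5p stood at 9.93 ± 3.53, 14.0 ± 11.1 and 8.12 ± 1.84 CPM in XLHZ, model and normal mucosa. miR-184, known from corneal and epidermal epithelium, had 12.2 ± 15.4, 16.8 ± 18.3 and 8.73 ± 5.46 CPM, and miR-135b-3p had at most 1 count in a library. Both miR-184 and miR-135b-5p were highest in model library 3, where miR-205 was lowest, at 43.2 CPM for miR-184 and 30.6 CPM for miR-135b-5p. Skeletal muscle miR-206-3p could mark the striated oesophageal wall. It had 9 to 27 counts in XLHZ, 2 to 56 in model and 9 to 27 in normal libraries. Forestomach and oesophagus cannot be told apart with these miRNAs, and the set is called squamous-linked for this reason.

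Markers of other tissues were set beside these values, and 0 arms of any list passed in any comparison. In model against normal, 50.9% of all miRNAs lay below 0 and 1 of 403 passed. All 4 tested arms of the glandular and endocrine list had log2 fold changes below 0 there (median -0.40), and all 4 smooth muscle arms above 0 (median 0.62). Several arms in these lists come from a shared hairpin, as both arms of miR-143 do. Counts of arms are therefore not counts of independent values. The 2 tested arms of the other squamous-linked list lay above 0 (median 0.86), where 5 of the 6 members lay below 0. In model library 3 miR-135b-5p had 30.6 CPM and miR-184 had 43.2 CPM. The other model libraries had 7.69 to 9.4 CPM and 1.0 to 12.5 CPM in that order. For these 2 arms no fold change without model library 3 is given. All 4 intestinal-type arms lay above 0 (median 0.22). Of the rest, 6 of 7 striated muscle arms lay above 0 (median 0.90), and miR-499-5p lay below 0 (-0.28). The most abundant of these arms, miR-1b, was highest in model libraries 2 and 3, as was smooth muscle miR-143-3p. A shift of striated muscle apart from smooth muscle was not tested. Below 0 lay 5 of 5 leukocyte arms (median -0.15), 2 of 2 endothelial arms (median -0.087) and 6 of 9 miR-200 family arms (median -0.029). The summed level of the 5 glandular and endocrine arms was 21718 to 30481 CPM in XLHZ, 11318 to 23850 in model and 23330 to 33819 in normal libraries, the lowest being model library 3. The 4 smooth muscle arms summed to 97611 to 277213, 145152 to 403505 and 133247 to 219379 CPM in the same order. For the 8 striated muscle arms the sums were 4650 to 13294, 7024 to 24459 and 6384 to 10096 CPM, with model library 3 the highest. The 5 intestinal-type arms of miR-192, miR-194 and miR-215 summed to 11834 to 14892, 6811 to 22995 and 9071 to 15362 CPM, with model library 3 the highest of its group and normal library 1 the lowest of its own. miR-192-5p and miR-205 had r = -0.73 (permutation p = 0.0175, adjusted 0.151) and rho = -0.58 (permutation p = 0.0517, adjusted 0.284) over the 12 libraries, and r = -0.37 without those 2 libraries. The miR-200 family was steadier, with 9 arms summing to 73136 to 85171, 54147 to 85725 and 68204 to 80518 CPM. The part of these tissues in the values of the squamous-linked miRNAs was not tested.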

How the data were processed

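Small RNA from gastric mucosa was prepared with a QIAseq miRNA kit, per the labels' protocols. Per the submitters' processing notes Bowtie and DESeq were used, with no version. No source used here states the genome build, the counting rule or the use of molecular identifiers. The authors deposited 2 tables of raw counts per mature miRNA, with CPM columns. Each deposited CPM equals the count over its column total within 5.0e-05. The model columns of both tables held the same counts for 621 of 622 shared miRNAs. The remaining miRNA was left out when the tables were joined, and those in 1 table alone (at most 3 counts) were set to 0 in the other. Totals were 9095260 to 11556061 counts per library. The replicates most alike still differed beyond counting error, with a chi-square of 192 per degree of freedom.

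Groups came from sample titles. Comparisons used the quasi-likelihood test of edgeR 4.0.16 in R 4.3.3, with TMM factors, filterByExpr (min.count 10) and Benjamini-Hochberg adjustment over the whole table. Model against normal and XLHZ against model were fitted on their own deposited tables, and the others on the join. Ratios used exact permutation tests over libraries, and correlations 100000 resamples. The procedure was tested on simulated counts. Members, lists and tests were chosen with earlier results of these data known. Every member was named, with its neighbours in abundance where they bear on it, and similar and opposite miRNAs by rank of Spearman rho. Alternatives were other scalings and filters, DESeq2 1.42.0, a replicate block, 1 fit of all libraries and leaving out libraries.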

Additional observations from a re-analysis of the deposited data

Results flagged for a closer look

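In 39 sets of 4 libraries (6 members and 7 ratios in 3 groups), 7 had a library far from the other 3 by Dixon's criterion at the 95% level, which chance gives in about 1 of 20. Normal library 1 was high for miR-205 (6553 CPM, the others 3556 to 3761), miR-203a-3p (3168 CPM, the others 1099 to 1339), miR-203b-3p (18.7 CPM, the others 7.38 to 9.24) and miR-205 over the miR-200 family (0.0966, the others 0.0451 to 0.0470). Model library 3 was high for miR-203a-3p over miR-205 (1.12, the others 0.249 to 0.279) and for miR-31a-5p over miR-205 (3.34, the others 0.690 to 1.05). Normal library 3 was low for miR-224-5p (66.7 CPM, the others 99.7 to 101). The 7 sets share libraries and miRNAs and are not independent.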

How the results depend on the processing

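Over 414 values of the 6 tested members under the alternatives, 0 passed and the lowest adjusted p was 0.176 (miR-203b-3p, exposed against normal, DESeq2). Of these, 26 changed sign against the value reported; the cause was not tested. In XLHZ against model, miR-203a-3p had log2 fold changes of 0.0001 with upper-quartile factors, 0.21 on library totals, 0.054 without a count filter and 0.020 with the replicate block. In that comparison miR-31a-5p had 0.16 on library totals, 0.015 without a filter and 0.018 with the block, miR-31a-3p 0.027 on library totals, and miR-224-5p -0.014 with RLE factors and -0.013 with DESeq2. In model against normal, miR-31a-3p had -0.020 without model library 3 and normal library 1.

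Leaving out 1 library at a time, XLHZ against model ranged from 0.019 to 0.37 for miR-205, -0.25 to 0.32 for miR-203a-3p, -0.18 to 0.24 for miR-203b-3p, -0.056 to 0.14 for miR-224-5p, -0.33 to 0.18 for miR-31a-3p and -0.17 to 0.22 for miR-31a-5p. The log2 ratio differences of miR-205 over the miR-200 family ranged from -0.82 to -0.23 in model against normal, and those of miR-31a-5p over miR-31a-3p from -0.65 to -0.31 in exposed against normal. Those that changed sign ranged as follows. For XLHZ against model they were -0.11 to 0.48 (miR-205 over the miR-200 family), -0.15 to 0.060 (miR-205 over miR-375-3p), -0.46 to 0.26 (miR-203a-3p over miR-205), -0.55 to 0.21 (miR-31a-5p over miR-205) and -0.020 to 0.25 (miR-31a-5p over miR-31a-3p). For XLHZ against normal they were -0.064 to 0.36 (miR-205 over miR-375-3p), -0.42 to 0.093 (miR-205 over miR-143-3p), -0.31 to 0.19 (miR-31a-5p over miR-205) and -0.15 to 0.13 (miR-224-5p over miR-205). For exposed against normal they were -0.031 to 0.40 (miR-205 over miR-375-3p), -0.35 to 0.019 (miR-203a-3p over miR-205), -0.18 to 0.32 (miR-31a-5p over miR-205) and -0.021 to 0.27 (miR-224-5p over miR-205). For model against normal they were -0.50 to 0.23 (miR-203a-3p over miR-205) and -0.17 to 0.58 (miR-31a-5p over miR-205). As differences of linear ratios, miR-203a-3p over miR-205 had 0.022 in exposed against normal, and miR-31a-5p and miR-224-5p over miR-205 had -0.045 and -0.0005 in XLHZ against normal.

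Over all miRNAs, model against normal called 1, and 2 with upper-quartile factors, library totals or at least 50 counts in 4 libraries, 3 without a filter, 4 in 1 fit of 12 libraries and 7 with DESeq2, with 1 to 4 when 1 library was left out. XLHZ against model called 0 to 1 when 1 library was left out. XLHZ against normal called 6, and 2 in 1 fit of 12 libraries. Exposed against normal called 2, and 5 with upper-quartile factors, library totals or no filter, 7 with DESeq2, and 2 to 4 when 1 library was left out.

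Pearson r was -0.24 for miR-205 and miR-126a-3p with group means subtracted. On library totals r was 0.074 for miR-203b-3p and miR-31a-5p, 0.048 for miR-31a-5p and miR-224-5p, and 0.23 for miR-205 and miR-200a-3p. With group means subtracted, r passed for miR-205 with miR-203b-3p (0.72), miR-31a-5p (-0.84) and miR-192-5p (-0.81). Without model library 3 and normal library 1 these were -0.22, -0.055 and -0.57. Before centring, r passed on library totals for miR-205 with miR-203b-3p (0.83), miR-224-5p (0.77), miR-375-3p (0.80) and miR-148a-3p (0.80), and for miR-203b-3p with miR-224-5p (0.71).

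Whether replicate numbers pair the libraries was looked at by description only, with no test. Deviations from group means correlated between -0.435 and 0.513 over same-numbered pairs. Of 12 libraries 5 correlated best with their own number, a count that was not set against chance and shows no pairing. With the replicate block, model against normal called 1, XLHZ against model 1, XLHZ against normal 5 and exposed against normal 3, and miR-205 had a log2 fold change of -0.59 in model against normal. With 4 libraries a group, the intervals of the members are wide, and miR-203b-3p rests on 29 to 187 counts a library.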
